A study of Xenopus laevis with 24 samples.

Results

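Histones and the proteins that handle them were followed in whole *Xenopus laevis* gastrulae as 31 transcript records of a table of 31306. A record was a member if its description contains histone, nucleoplasmin or nucleosome assembly protein and its mean was at least 0.5 FPKM (a fragment level scaled by transcript length and by library size). By description 9 records were core histones, 6 were linker histones, 1 was a histone of unstated type, 5 were chaperones or proteins that handle histone RNA, 9 were chromatin-modifying proteins or their complex subunits and 1 was a histone-fold subunit of a remodelling complex. The word histone brought in 29 members, nucleosome assembly protein brought in 2 and nucleoplasmin brought in 0. Of the 31 records, 5 are expressed sequence tags (ESTs, short reads of cDNA clones) described only by likeness to a histone. The members closest to the minimum were an H2A family record at 0.60 FPKM and the linker histone H5 at 0.72 FPKM, and 1 further record that matched by description, an H3.3-like EST, averaged 0.28 FPKM and was left out.

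Each library came from a pool of 5 embryos at gastrula stage 10.5. Starting at stage 6 to 7, the embryos had been kept, 25 to a dish, in 1 µM TTNPB, an agonist of the retinoic acid receptors (RARs), in 1 µM AGN193109, which acts on RARs as an inverse agonist, or in 0.1% ethanol as vehicle. There were 24 libraries, 8 per exposure, of which 4 came from clutch E and 4 from clutch D. No strain or genotype is given in the labels, the clutches are the only independent sibships, and several pools may come from 1 dish. In pooled whole embryos, fewer cells of a type and less RNA per cell cannot be told apart.

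Eukaryotic DNA is wound on nucleosomes made of the core histones H2A, H2B, H3 and H4, and linker histones of the H1 family bind where the DNA enters and leaves. The *Xenopus* egg stores a maternal linker histone, B4, which somatic H1 replaces on chromatin as development proceeds, along with chaperones such as N1/N2 and the nucleosome assembly proteins that hold histones until DNA is packed in the rapid early divisions. Most core histone mRNAs end in a stem-loop in place of a poly(A) tail, and the stem-loop binding protein SLBP carries them through processing and translation. In the absence of ligand, RARs bind corepressors that recruit histone deacetylases such as HDAC3, and ligand exchanges these for coactivators.

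The embryos' stage and exposure were read from records outside the histone list. All 7 gastrula markers examined passed the minimum, from *gsc* at a mean of 7.22 FPKM to *tbxt* at 131 FPKM. The 5 records of later-tissue markers, a pair of them *alb*, averaged from 0 to 0.389 FPKM. The planned lists were longer, and the other planned markers, among them *vegt* and *sox2*, were not examined. All 4 records of RAR-responsive genes examined (*hoxd1*, *rara* and a pair of *hoxa2* records) rose with TTNPB against vehicle, with a median log2 difference of 1.71. With AGN193109 against vehicle 0 of these 4 passed the threshold, with a median of -0.50. The gene *cyp26a1*, also planned for this check, was not examined. The library AGN193109 4E stood apart from the others. The 10 records with the highest mean over all libraries held 72.3% of its total FPKM, against 43.1% to 61.4% in the other 23 libraries. The median tested record stood at 2.22 FPKM in AGN193109 4E, against 3.26 to 4.47 FPKM elsewhere. Among the 31 members, 28 were lower in it than the median of the other 3 AGN193109 libraries of clutch E, 24 were below every other clutch E library, and the median member stood at 0.323 times that median. The differences that involve AGN193109 or clutch E are therefore given with and without it where they bear on a call.

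Several histone records were among the most abundant of the embryo. The median member averaged 33.9 FPKM, against 4.03 FPKM for the median of the 22630 records that reached the minimum of 0.5 FPKM and were tested, and 26 of 31 members lay above that median. A somatic linker histone, the H1A variant, led with a mean of 1290 FPKM and ranked 31 among the tested records. It was followed by the replacement variant H2A.Zl1 (475 FPKM), an EST for somatic H1A (213 FPKM), the chaperone N1/N2 (211 FPKM) and H2B (175 FPKM). The plot of levels shows how widely the records of the core and linker classes are spread. Over the 24 libraries the median share of all FPKM was 0.127% for core histones, 0.189% for linker histones, 0.0535% for chaperones and RNA-handling proteins, 0.0490% for chromatin-modifying proteins, 0.00387% for the record of unstated type and 0.000377% for the remodelling subunit.

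**Figure D1:**
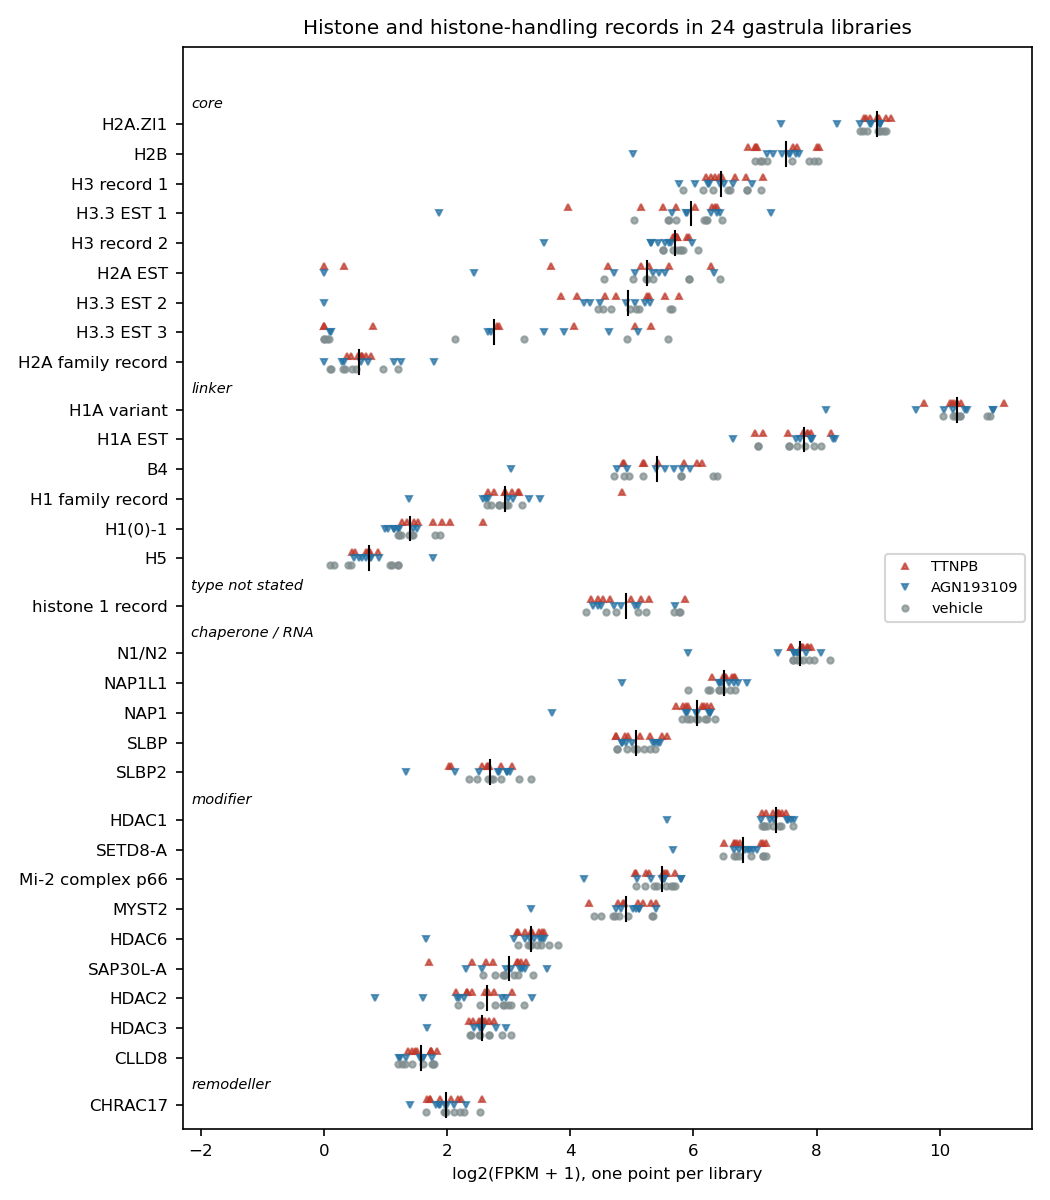
Level of each of the 31 records (rows, grouped by class) on the log2(FPKM + 1) scale, with 1 point per library, the 8 libraries of each exposure marked by shape and the median of all 24 as a black bar. The 3 exposures overlap in each row, and the point far to the left in many rows is AGN193109 4E.

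Among the core histones H2A.Zl1, a variant of the H2A.Z type that replaces H2A outside DNA replication, ranged from 436 to 591 FPKM (median 506) with TTNPB, from 170 to 525 FPKM (median 469) with AGN193109 and from 418 to 560 FPKM (median 513) with vehicle. H2B, a partner of H2A in the nucleosome, ranged from 118 to 262 FPKM (median 162) with TTNPB, from 31.3 to 209.5 FPKM (median 180) with AGN193109 and from 126 to 259 FPKM (median 170) with vehicle. The groups overlap in both records, and 4E gives the lowest value of each. A pair of records is described only as H3 histone, and they averaged 90.9 and 49.2 FPKM. The H2A family record was near the minimum, from 0 to 2.44 FPKM. No member of the core class is described as histone H4.

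The 3 H3.3-like ESTs, tags of the replication-independent H3 variant, and the H2A-like EST swung widely between libraries of 1 group. H3.3 EST 3 stood under 1 FPKM in 9 of 24 libraries and reached 46.9 FPKM in vehicle 1E, and its coefficient of variation outside 4E was 129.6%. H3.3 EST 2 was at about 0 in AGN193109 4E and reached 53.5 FPKM in TTNPB 3D, and H3.3 EST 1 ran from 2.63 FPKM in AGN193109 4E to 152 FPKM in AGN193109 2D. The H2A EST was under 1 FPKM in 3 libraries, AGN193109 3D, TTNPB 3E and TTNPB 4E, and reached 85.7 FPKM in vehicle 3D. The sum of the 3 H3.3 ESTs ran from 58.0 to 171 FPKM outside 4E. Tags of 1 gene or of near-identical copies can share reads, so the split between these records is uncertain. By comparison the coefficient of variation outside 4E was 12.4% for H2A.Zl1 and 13.6% for the less abundant H3 record.

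**Figure D2:**
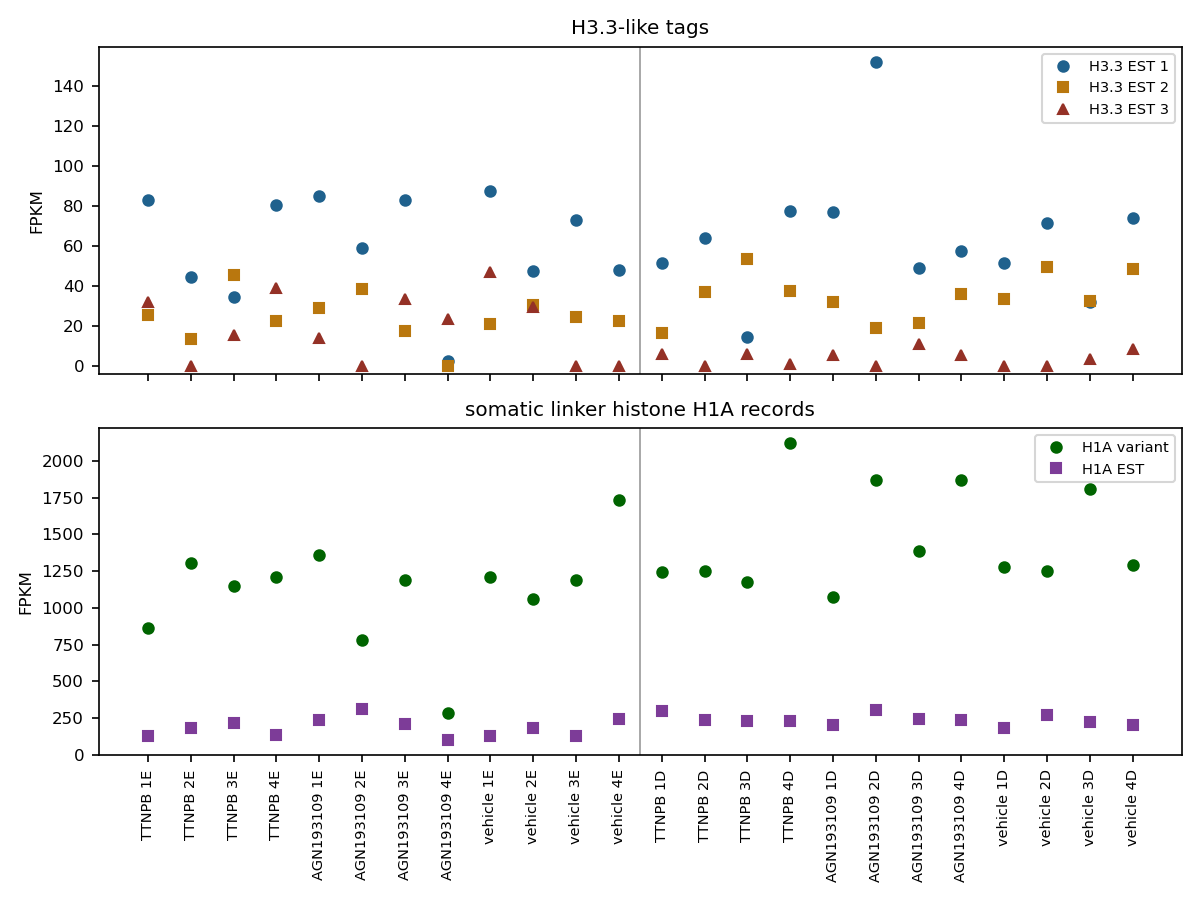
FPKM of the 3 H3.3-like ESTs (top) and the pair of somatic H1A records (bottom) in each of the 24 libraries, clutch E left of the line and clutch D right of it. H3.3 EST 3 is near 0 in 9 libraries, and the H1A variant stands at 2121 FPKM in TTNPB 4D and 283 FPKM in AGN193109 4E.

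The linker histones ran from the most abundant member to some of the rarest. The H1A variant ranged from 861 to 2121 FPKM (median 1227) with TTNPB, from 283 to 1869 FPKM (median 1275) with AGN193109 and from 1059 to 1808 FPKM (median 1264) with vehicle. Maternal B4 was far lower, from 27.9 to 69.7 FPKM (median 38.8) with TTNPB, from 7.16 to 60.7 FPKM (median 43.4) with AGN193109 and from 25.2 to 82.7 FPKM (median 44.8) with vehicle. On the per-length FPKM scale B4 stood at 1.63% to 6.46% of the H1A variant in the 23 libraries other than 4E. This is a ratio of mRNA levels, and the proteins on chromatin were not measured. Whether mRNAs with and without a poly(A) tail were captured alike was not tested. The H1 family record, of unstated subtype, averaged 7.41 FPKM. The replacement linker histones, typical of differentiated or resting cells, were the lowest, with H1(0)-1 at 1.86 FPKM and H5 at 0.72 FPKM. H5 is also the name of a linker histone in the nucleated red cells of birds. Whether the H1(0)-1 and H5 records are copies of 1 gene was not examined, so the split of reads between them is uncertain.

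Within clutch D the H1A variant fell into separate ranges of values that followed the total of all FPKM. The 4 clutch D libraries with the lowest totals (TTNPB 4D, AGN193109 2D, AGN193109 4D and vehicle 3D), with totals from 672614 to 729879 FPKM, had 1808 to 2121 FPKM of it. The other 8 libraries of clutch D, with totals from 877812 to 1011840 FPKM, had 1071 to 1389 FPKM. Of the other members, NAP1L1 was also above the 8 libraries in all of these 4, and the more abundant H3 record was below them. How many of all tested records split in this way was not counted. The 10 most abundant records of the table held 43.1% to 47.2% of all FPKM in these 4 libraries and 56.2% to 61.4% in the other 8, and their part in the H1A values was not tested. TTNPB 4D also had the highest values of the H1 family record (27.7 FPKM) and of H1(0)-1 (5.02 FPKM). Totals in the 11 clutch E libraries other than 4E ran from 636467 to 801545 FPKM. Their values of the H1A variant, 784 to 1735 FPKM, lay below those of the 4 low-total clutch D libraries.

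The chaperones of free histones were abundant. N1/N2, the H3-H4 carrier known in other vertebrates as NASP, averaged 216 ± 17.9 FPKM with TTNPB, 190 ± 60.6 FPKM with AGN193109 (209 ± 31.6 FPKM without 4E) and 225 ± 34.2 FPKM with vehicle (SD, n = 8 each, or 7 without 4E). The nucleosome assembly proteins, chaperones of H2A and H2B, averaged 87.5 FPKM in the record NAP1L1 and 63.9 FPKM in the record NAP1. The descriptions do not show whether these are copies of 1 gene, so the split of reads between them is uncertain. SLBP averaged 33.9 FPKM and its oocyte-specific relative SLBP2, which in *Xenopus* oocytes holds stored histone mRNA silent, averaged 5.51 FPKM.

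The chromatin-modifying members were led by the class I deacetylase HDAC1 (158 FPKM) and by SETD8-A (113 FPKM), which places a single methyl group on lysine 20 of H4. The other deacetylases were the class I enzymes HDAC2 (5.22 FPKM) and HDAC3 (5.02 FPKM), and HDAC6 (9.32 FPKM), a mainly cytoplasmic enzyme. Of the deacetylase complex subunits, p66 of the Mi-2 complex averaged 41.9 FPKM and SAP30L-A, of the Sin3 complex, averaged 6.85 FPKM. The acetyltransferase MYST2 (KAT7), which acts at replication origins, averaged 29.6 FPKM. CLLD8 (SETDB2), a putative methyltransferase of H3 lysine 9, averaged 1.92 FPKM and CHRAC17, a histone-fold subunit of the CHRAC remodelling complex, averaged 3.07 FPKM.

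The comparison of TTNPB with vehicle asked whether activating RARs changes these transcripts by stage 10.5. None of the 31 members passed the threshold (0 of 31, limma on log2(FPKM + 1), Benjamini-Hochberg adjusted p under 0.05 over all 22630 tested records), while 0.787% of all tested records passed. At an unadjusted p under 0.05 there was 1 member, and the median log2 difference was -0.05 over the members and 0.01 over all tested records. Such unadjusted counts, here and in the other comparisons of exposures, have no share of all tested records beside them and are description only. The 95% interval of the difference lay between -1 and 1 on the log2 scale for 27 of 31 members and between -0.5 and 0.5 for 15 (29 and 21 when 4E was left out of the fit). With all libraries the exceptions to the wider range were the 3 H3.3 ESTs and the H2A EST. The class medians were 0.01 for core histones, 0.02 for linker histones, -0.05 for chaperones and RNA-handling proteins and -0.08 for chromatin-modifying proteins.

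The member with the smallest p-value against vehicle was H1(0)-1. It ranged from 1.40 to 5.02 FPKM (median 2.15) with TTNPB and from 1.31 to 2.67 FPKM (median 1.64) with vehicle, and the groups overlap, with 3 TTNPB libraries above the highest vehicle library. The log2 difference was 0.29 ± 0.14 (SE; adjusted p = 0.822, limma). The H2A EST had a difference of -1.59 ± 0.87 (adjusted p = 0.897, limma) that spans the swings between libraries given above. The record described only as histone 1 ranged from 19.2 to 57.1 FPKM with TTNPB and from 18.1 to 54.1 FPKM with vehicle, a difference of -0.24 ± 0.19 (adjusted p = 0.999, limma). The abundant members lay close to vehicle, with a difference of 0.03 (95% interval -0.34 to 0.39) for H2A.Zl1, -0.09 (-0.61 to 0.43) for the H1A variant, -0.07 (-0.53 to 0.39) for H2B and -0.06 (-0.51 to 0.40) for B4. Among the deacetylases, HDAC1 differed by 0.04 (-0.33 to 0.41) and HDAC3, the enzyme of the RAR corepressor complex, by -0.08 (-0.37 to 0.22).

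**Figure D3:**
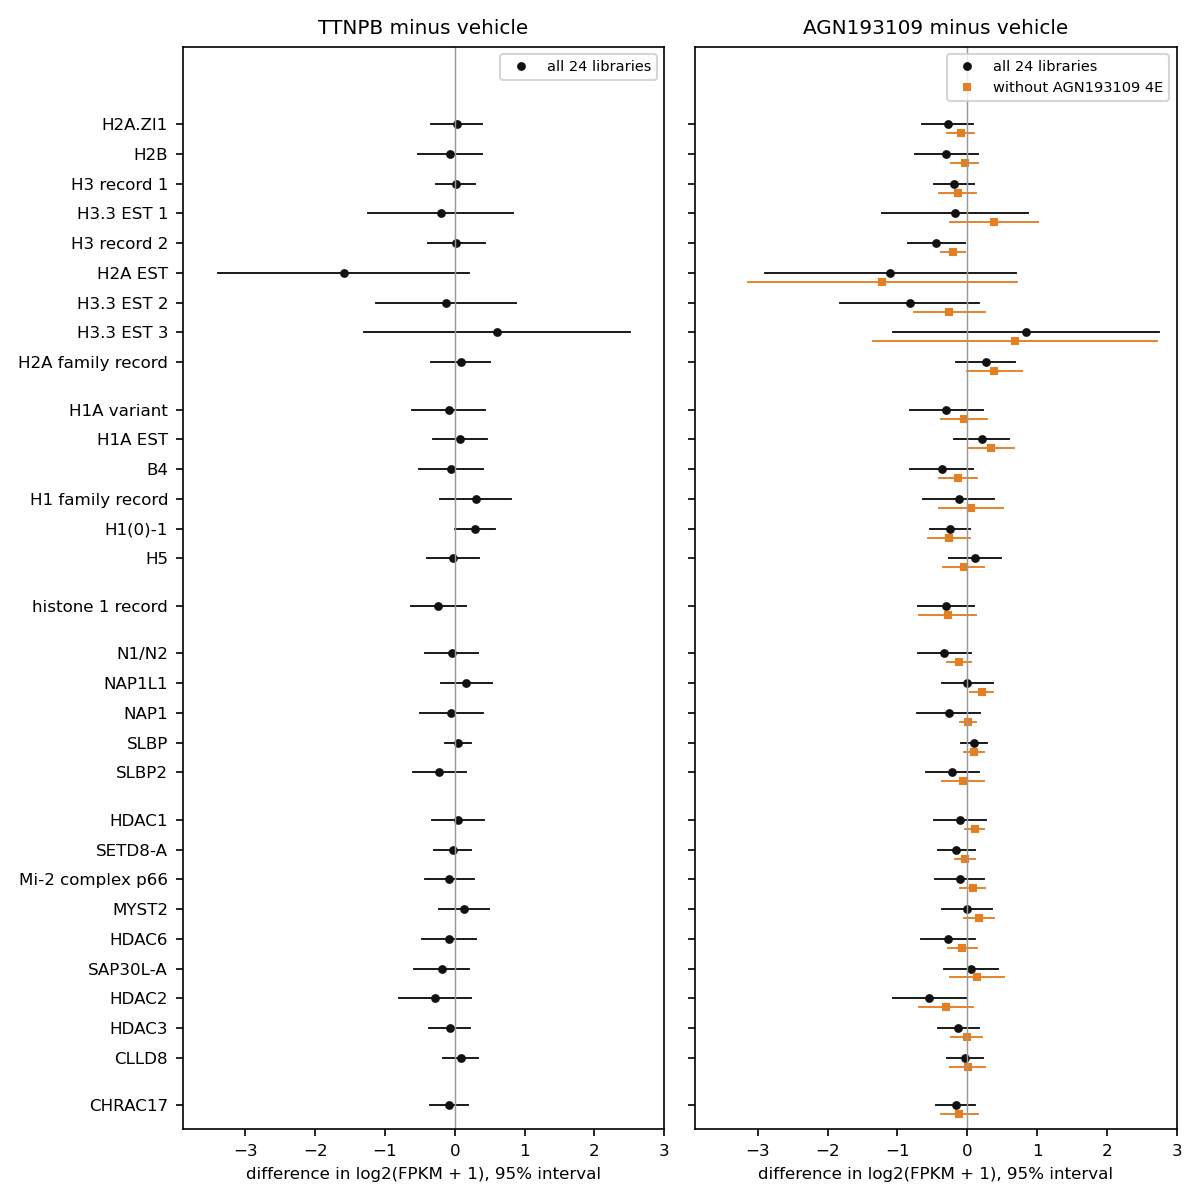
Difference in log2(FPKM + 1) of each record from vehicle, with its 95% interval from the limma fit, for TTNPB (left) and AGN193109 (right; squares are the fit without AGN193109 4E). No record passed the threshold, and the widest intervals belong to the H3.3 ESTs and the H2A EST.

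AGN193109 against vehicle asked whether an inverse agonist, a ligand that favours corepressor binding, changes them. Again 0 of 31 members passed (limma), where 0.0177% of all tested records did, and 2 members had an unadjusted p under 0.05. With all libraries 24 of 31 members had a negative difference and the members' median was -0.17, against -0.03 over all tested records. The share of negative differences over all tested records was not counted. Without AGN193109 4E the members' median was -0.04, against 0.06 over all tested records, and again 0 of 31 passed, with 3 at an unadjusted p under 0.05.

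The less abundant H3 record had the smallest p-value here. It ranged from 10.9 to 61.7 FPKM (median 43.6) with AGN193109 and from 44.4 to 66.5 FPKM (median 53.0) with vehicle, a log2 difference of -0.44 ± 0.20 (adjusted p = 0.575, limma). Without 4E the lowest AGN193109 value was 38.6 FPKM and the difference -0.21 ± 0.08 (adjusted p = 0.280, limma). HDAC2 ranged from 0.773 to 9.38 FPKM (median 3.70) with AGN193109 and from 3.54 to 8.48 FPKM (median 6.54) with vehicle, a difference of -0.54 ± 0.25 (adjusted p = 0.591, limma), and N1/N2 had a difference of -0.33 ± 0.19 (adjusted p = 0.674, limma). For N1/N2 the difference without 4E was -0.12, and for HDAC2 it was -0.31. The groups overlap in all 3 records.

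TTNPB was also set against AGN193109 directly, at the same dose. None of the 31 members passed (0 of 31, limma), while 1.03% of all tested records did, and 2 members had an unadjusted p under 0.05. The member nearest to the threshold was H1(0)-1, the replacement linker histone. It ranged from 1.40 to 5.02 FPKM (median 2.15) with TTNPB and from 0.986 to 1.86 FPKM (median 1.25) with AGN193109. The log2 difference was 0.53 ± 0.14 (adjusted p = 0.0729, limma), and 0.55 ± 0.14 without 4E (adjusted p = 0.0626). It passed the threshold when TTNPB 2D was left out (0.59, adjusted p = 0.0335), with limma array weights (adjusted p = 0.0351) and with upper-quartile scaling of the 23 libraries other than 4E (adjusted p = 0.0361). Without TTNPB 4D, the highest library, it was 0.43 (adjusted p = 0.153), and over all leave-outs of 1 library the adjusted p ran from 0.0335 to 0.186. Within each clutch TTNPB and AGN193109 did not overlap, though in clutch D they nearly met. In clutch E H1(0)-1 stood at 1.40 to 3.14 FPKM with TTNPB and 0.986 to 1.20 FPKM with AGN193109. In clutch D it stood at 1.88 to 5.02 FPKM with TTNPB and 1.29 to 1.86 FPKM with AGN193109. The record was singled out by this same comparison, so the separation is no further result. How many of all tested records separate in this way was not counted. The H3 record and H2A.Zl1 had differences of 0.46 ± 0.20 (adjusted p = 0.538, limma) and 0.31 ± 0.18 (adjusted p = 0.749, limma), and these were 0.23 and 0.12 without 4E. In clutch D alone, which holds no 4E, the H2A.Zl1 difference was -0.054. TTNPB and AGN193109 were each compared with the same vehicle libraries, so their differences from vehicle are not independent.

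Members passed the threshold between the embryos of clutch E and those of clutch D. The clutches are sibships, not exposures, and clutch cannot be told apart from anything else that differed between the collections. Of the 31 members 12 passed the threshold (limma), 1 higher and 11 lower in clutch E, while 29.3% of all tested records passed, 3.53% higher and 25.8% lower. Without 4E 16 of 31 passed, 2 higher and 14 lower, while 36.1% of all tested records passed, 8.08% higher and 28.0% lower. The whole table was shifted in the same direction, with a median log2 difference of -0.19 over all tested records and -0.32 over the members, 22 of which lay below the table's median. Stage markers were compared between the clutches as well. All 7 gastrula markers had a negative difference as deposited (6 with upper-quartile scaling, 4 when 4E was also left out), the direction of the whole table as deposited. As deposited 2 of 7 passed as lower (*tbxt* and *chrd*), beside 25.8% of all tested records, and 4 without 4E, beside 28.0%. With upper-quartile scaling 1 of 7 passed as lower, beside 13.3%. *tbxt*, a mesoderm gene, averaged 109 ± 10.2 FPKM in clutch E and 153 ± 14.1 FPKM in clutch D (SD, n = 12 each), a difference of -0.49 that also passed with upper-quartile scaling (-0.24, adjusted p = 0.00880, limma). Their part in the members' differences was not tested. The median shift of the whole table depends on the scaling of the libraries. With upper-quartile scaling the median of all tested records was -0.01, 11.6% passed as higher and 13.3% as lower, and 6 members passed, 2 higher (SLBP and p66) and 4 lower (B4, H2B, MYST2 and SETD8-A). With upper-quartile scaling and 4E left out 11 members passed, 4 higher and 7 lower, beside 15.8% of all tested records higher and 17.1% lower. With quantile normalization 9 members passed, 2 higher and 7 lower, beside 11.9% of all tested records higher and 12.9% lower. The calls of H2B, B4, SLBP, MYST2 and SETD8-A were present with the FPKM as deposited, without 4E, and under each of the 3 rescaled fits.

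B4, the maternal linker histone, had the largest difference among the calls. It ranged from 7.16 to 41.1 FPKM (median 28.8) in clutch E, with 25.2 FPKM the lowest outside 4E, and from 42.1 to 82.7 FPKM (median 55.9) in clutch D, so the clutches do not overlap. Nor did the level of the median tested record, at 2.22 to 3.90 FPKM in clutch E and 4.03 to 4.47 FPKM in clutch D. How many of all tested records lack overlap was not counted, for B4 or for the records below. For B4 the log2 difference was -1.07 ± 0.18 (adjusted p = 8.02e-05, limma), -0.92 without 4E and -0.83 with upper-quartile scaling. The differences of the other linker histones were smaller. The H1A EST passed with -0.43 ± 0.15 (adjusted p = 0.0390, limma) and H1(0)-1 with -0.35 ± 0.11 (adjusted p = 0.0240, limma). Both passed without 4E, at -0.34 and -0.36, and neither passed with upper-quartile scaling. H5 did not pass with all libraries (-0.20 ± 0.15, adjusted p = 0.325, limma) and passed without 4E (-0.31, adjusted p = 0.0407) and in the vehicle libraries alone (-0.87, adjusted p = 0.00830). The call of the H1A EST was lost in 10 of the 24 fits that leave out 1 library. This tag may share reads with the H1A variant, so the split between the pair is uncertain. The H1A variant had a difference of -0.47 ± 0.21 (adjusted p = 0.0883, limma), -0.22 with upper-quartile scaling, and passed only with quantile normalization (-0.43, adjusted p = 0.00934) among the fits of all 3 exposures given here. As a share of the H1A variant, B4 was 1.63% to 5.25% (median 2.51%) in clutch E and 1.98% to 6.46% (median 4.39%) in clutch D. This ratio, which scaling a library by a single factor does not alter, overlaps between the clutches.

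H2B was the core histone with the largest difference among the calls. It ranged from 31.3 to 172 FPKM (median 132) in clutch E, with 118 FPKM the lowest outside 4E, and from 187 to 262 FPKM (median 207) in clutch D, without overlap. The log2 difference was -0.84 ± 0.18 (adjusted p = 0.00109, limma), -0.66 without 4E and -0.59 with upper-quartile scaling. The more abundant H3 record passed as well, at 53.4 to 93.2 FPKM (median 77.2) in clutch E and 74.6 to 138 FPKM (median 108) in clutch D, a difference of -0.49 ± 0.11 (adjusted p = 0.00176, limma). It was -0.46 without 4E and did not pass with upper-quartile scaling (-0.25, adjusted p = 0.0892), though it did when 4E was also left out (-0.29, adjusted p = 0.0226). The other 7 core records did not pass. Within the core class H2A.Zl1 had the smallest difference as deposited, at 170 to 591 FPKM (median 517) in clutch E and 417 to 545 FPKM (median 458) in clutch D, a difference of -0.02 with a 95% interval of -0.32 to 0.28, which was 0.10 without 4E and 0.23 with upper-quartile scaling. With upper-quartile scaling and 4E left out it passed as higher in clutch E (0.27, adjusted p = 0.00879, limma). The record described as histone 1 was lower in clutch E, with a difference of -0.64 ± 0.16 (adjusted p = 0.00337, limma), -0.62 without 4E, and did not pass with upper-quartile scaling (-0.40, adjusted p = 0.0824), though it did when 4E was also left out (-0.46, adjusted p = 0.0304).

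**Figure D4:**
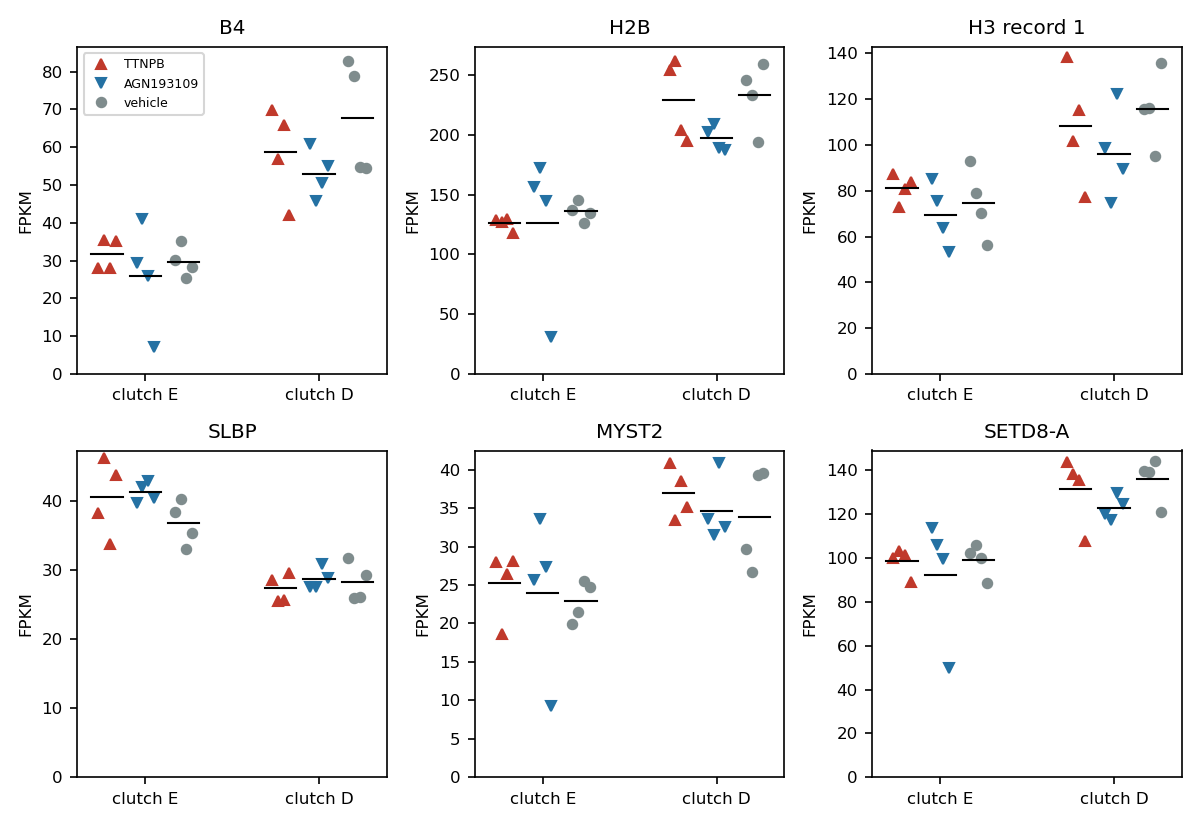
FPKM of 6 of the 12 records that passed between the clutches, with 1 point per library, clutch E left of clutch D, the exposures by shape and the mean of each 4 libraries as a bar. In B4, H2B and SLBP no library of 1 clutch reaches the range of the other, and SLBP is the 1 record higher in clutch E. How many of all tested records are separated in this way was not counted.

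SLBP, whose protein binds the stem-loop of histone mRNA, was higher in clutch E. It ranged from 33.0 to 46.3 FPKM (median 40.1) in clutch E and from 25.6 to 31.8 FPKM (median 28.1) in clutch D, without overlap, and its level in AGN193109 4E (40.4 FPKM) was inside the range of the other clutch E libraries. The log2 difference was 0.47 ± 0.07 (adjusted p = 2.50e-05, limma), 0.48 without 4E and 0.72 with upper-quartile scaling. The ratio of H2B to SLBP, taken within each library, was 2.69 to 4.09 in the 11 clutch E libraries other than 4E (0.775 in 4E) and 6.13 to 10.2 in clutch D. The ratio of B4 to SLBP was 0.603 to 0.976 in those 11 libraries (0.177 in 4E) and 1.42 to 3.02 in clutch D. Neither ratio overlaps between the clutches, which follows from the separate ranges of the records in it and is no further result. SLBP2 differed in the other direction from SLBP, at -0.47 ± 0.15 (adjusted p = 0.0202, limma) and -0.37 without 4E, and did not pass with upper-quartile scaling.

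Of the chaperones, NAP1 was lower in clutch E. It ranged from 12.0 to 65.2 FPKM (median 58.3) in clutch E and from 65.8 to 80.7 FPKM (median 73.3) in clutch D, a log2 difference of -0.49 ± 0.18 (adjusted p = 0.0399, limma), and with 4E left out -0.31 (adjusted p = 1.12e-05). The clutches do not overlap, though the highest value of clutch E nearly reaches the lowest of clutch D, and the median tested record was separated in the same direction. With upper-quartile scaling NAP1 did not pass (-0.25, adjusted p = 0.106), though it did when 4E was also left out (-0.14, adjusted p = 0.0196), and its call as deposited was lost in 11 of the 24 fits that leave out 1 library. NAP1L1 and N1/N2 had differences of -0.34 ± 0.15 and -0.32 ± 0.15 that did not pass with all libraries and passed without 4E (-0.21, adjusted p = 0.0115, and -0.18, adjusted p = 0.0346, limma).

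Among the modifying enzymes SETD8-A and MYST2 were lower in clutch E. SETD8-A ranged from 49.6 to 114 FPKM (median 101) in clutch E and from 107 to 144 FPKM (median 132) in clutch D, a log2 difference of -0.44 ± 0.10 (adjusted p = 0.00227, limma), of -0.36 without 4E and of -0.20 with upper-quartile scaling. MYST2 ranged from 9.30 to 33.6 FPKM (median 25.6) in clutch E and from 26.7 to 40.9 FPKM (median 34.4) in clutch D, a difference of -0.57 ± 0.14 (adjusted p = 0.00365, limma), of -0.45 without 4E and of -0.33 with upper-quartile scaling. In SETD8-A the ranges of the clutches overlap by 1 library of each clutch. In MYST2 4 of 12 clutch E libraries lie above the lowest clutch D library, and 6 of 12 clutch D libraries lie below the highest clutch E library. HDAC1 did not pass with all libraries (-0.38 ± 0.15, adjusted p = 0.0521, limma) and passed without 4E (-0.24, adjusted p = 0.000756) and with quantile normalization (-0.20, adjusted p = 0.0247). The p66 subunit had a difference of 0.21 ± 0.14 (adjusted p = 0.263, limma) and passed as higher without 4E (0.34, adjusted p = 0.000630) and with upper-quartile scaling (0.46, adjusted p = 0.000160). CHRAC17 passed at the edge of the threshold (-0.28 ± 0.11, adjusted p = 0.0494, limma) and not without 4E (-0.25, adjusted p = 0.0628). HDAC3, HDAC6, SAP30L-A and CLLD8 did not pass in any of these fits, and HDAC2 (0.22 ± 0.21, adjusted p = 0.453, limma) passed as higher in clutch E with upper-quartile scaling and 4E left out (0.52, adjusted p = 0.00994).

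**Figure D5:**
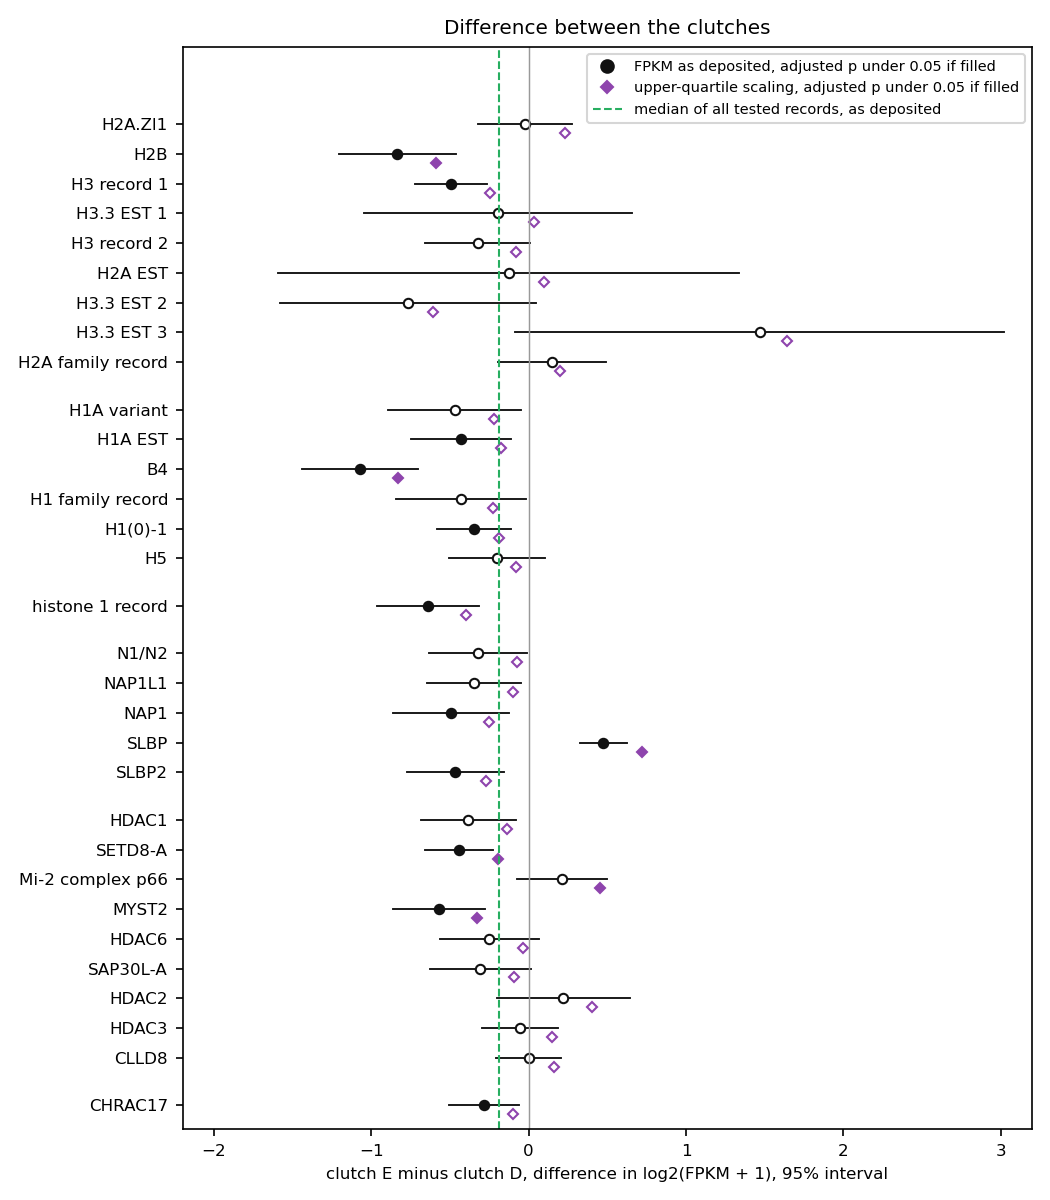
Difference between clutch E and clutch D in log2(FPKM + 1) for each record, as deposited (circles with 95% intervals) and with upper-quartile scaling (diamonds); filled symbols passed the threshold. The dashed line is the median of all tested records as deposited, -0.19, and only SLBP is a filled circle right of it.

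The clutch difference was also fitted within the libraries of each exposure, a division added after the data had been seen. The 12 members that passed had the same sign in all 3 exposures, except that the H1A EST turned to 0.032 in the AGN193109 libraries when 4E was left out. These members were picked by the joint fit of the same libraries, so like signs are partly built in. The share of like signs among all called records was not counted. In the TTNPB libraries alone 6 of 31 passed, beside 9.96% of all tested records. In the AGN193109 libraries alone 0 of 31 passed (limma), beside 0.707% of all tested records, and without 4E 1 of 31 passed (SLBP), beside 3.69%. With all AGN193109 libraries 3 members had an unadjusted p under 0.05 (limma), a count with no share of all tested records beside it. In the vehicle libraries alone 10 of 31 passed, beside 14.0%. B4 differed by -0.85 with TTNPB, -1.22 with AGN193109 (-0.73 without 4E) and -1.14 with vehicle. SLBP differed by 0.54 with TTNPB, 0.51 with AGN193109 (0.52 without 4E) and 0.37 with vehicle.

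Whether the response to TTNPB itself differed between clutch E and clutch D was tested by the interaction of exposure and clutch. None of the 31 members passed (0 of 31, limma), as did 0% of all tested records, and 1 member had an unadjusted p under 0.05, against 649 of all tested records. That member was H5, whose level was near the minimum. With TTNPB it ran from 0.361 to 0.676 FPKM in clutch E and from 0.419 to 0.832 FPKM in clutch D. With vehicle it ran from 0.0672 to 0.348 FPKM in clutch E and from 1.09 to 1.30 FPKM in clutch D. The difference of the log2 responses was 0.84 ± 0.28 (unadjusted p = 0.00634, adjusted p = 1.00, limma), and without 4E the same difference had an SE of 0.19 and an adjusted p of 0.280. The members next in order were the H2A family record (-0.54 ± 0.40) and the H2A EST (-2.03 ± 1.59), both with an adjusted p of 1.00 (limma). The intervals are wide, and 16 of 31 members had one inside -1 to 1 on the log2 scale (21 without 4E).

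Other genes of the same processes were read from lists matched by description. The planned lists were longer, and the counts cover only the records examined. Planned genes not examined include *ep300* and *ncoa1* among the RAR coregulators, *chd4* and *ssrp1* in chromatin assembly and remodelling, and *fen1* in DNA replication. Of 21 records of chromatin assembly and remodelling (among them the CAF-1 subunits *chaf1a* and *chaf1b*, the remodelling ATPases *smarca4* and *smarca5*, *ezh2* and *npm1*), 0 passed in any of the 3 comparisons of exposures (limma). The same holds for 8 records of RAR coregulators, which include the corepressor *ncor1* and the coactivator *ncoa3*, and for 29 records of DNA replication, which include the MCM helicase subunits and *pcna*. Between the clutches, 14 of 29 DNA replication records were lower in clutch E and 0 higher (limma, median -0.34), beside 25.8% of all tested records lower and 3.53% higher. Without 4E 13 were lower and 2 higher, beside 28.0% of all tested records lower and 8.08% higher. With upper-quartile scaling 9 were lower and 3 higher (median -0.13), beside 13.3% of all tested records lower and 11.6% higher. The lower records included *pcna* (-0.54 ± 0.12, adjusted p = 0.00125) and the ligase *lig1* (-0.72 ± 0.14, adjusted p = 0.000364), both of which also passed without 4E, at -0.45 and -0.58, and with upper-quartile scaling, at -0.30 and -0.48. The 3 higher with upper-quartile scaling were *cdt1* (0.27), *cdc45* (0.43) and a record of *mcm4* (0.56). Another *mcm4* record passed there as lower (-0.37). In the chromatin assembly list 3 of 21 were lower as deposited (*hira*, *hmgb2* and *smarca4*), without 4E 6 were lower and 2 higher, and with upper-quartile scaling 2 were lower and 2 higher. Of the RAR coregulators, 1 of 8 (*sin3a*) was lower as deposited. Without 4E 2 were lower (*sin3a* and *carm1*) and 3 higher (*ncoa3*, *ncor1* and a record of *prmt1*). With upper-quartile scaling 4 were higher (*ncoa3*, *ncor1* and both *prmt1* records) and 0 lower. Both lists stand beside the shares of all tested records given above for the same setting.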

How the data were processed

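NuGEN Ovation V2 reagents amplified the total RNA, which went into SOLiD fragment libraries, per the labels' protocols. The authors deposited 1 table of FPKM values for the 24 libraries, and TopHat, Bowtie and Cufflinks are named per the submitters' processing notes. In the sources used here, neither versions nor a reference is given. Counts are not part of the table, so the depth is unknown and no counting error can be given.

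The 22630 records whose mean reached 0.5 FPKM were fitted as log2(FPKM + 1) with limma 3.58.1 in R 4.3.3 (trended variance, terms for exposure and clutch, all libraries in 1 fit, and an interaction fit). A difference on this scale understates the change of low records. The Benjamini-Hochberg adjustment ran over every tested record, and an adjusted p under 0.05 passed. The libraries of a clutch may share a dish, so p-values measure the spread between these samples, which may be technical. The fit was tested on simulated data with noise drawn independently for each record and library. Such data hold neither the library-wide shift of AGN193109 4E nor that between the clutches, so the fit was not tested under these.

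The members and gene lists were chosen with earlier results of these data known. Named members are the 4 most abundant of each class, every linker and variant record, and in each comparison those past the threshold or, where fewer than 3 passed, the 3 with the smallest p. A gene symbol was looked up in RefSeq for 17 members, and all 17 matched, 1 of them (NAP1) more than 1 entry. The other members were not looked up. The alternatives were the pseudocount (0.1), the filter (a mean of at least 1 FPKM, or none), quantile normalization, upper-quartile scaling, other model terms, array weights and leaving out each library.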

Additional observations from a re-analysis of the deposited data

Results flagged for a closer look

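Within an exposure, 11 of 93 groups of 8 libraries had a highest or lowest library far from the others by Dixon's test at the 95% level, which nominally marks about 1 in 20 groups. Each group mixes both clutches and the records share the same libraries, so 11 of 93 cannot be weighed against that rate. AGN193109 4E accounted for 8 of the 11. It was lowest for H2B (31.3 FPKM, others 145 to 209.5), the less abundant H3 record (10.9 FPKM, others 38.6 to 61.7), NAP1L1 (27.7 FPKM, others 84.7 to 116), NAP1 (12.0 FPKM, others 58.1 to 75.9), HDAC1 (46.3 FPKM, others 135 to 197), HDAC6 (2.16 FPKM, others 7.46 to 10.9) and SETD8-A (49.6 FPKM, others 99.5 to 130). For H5 it was highest, at 2.41 FPKM, with the others at 0.397 to 0.852 FPKM.

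TTNPB 4D stood above the other TTNPB libraries for the H1A variant (2121 FPKM, others 861 to 1305) and for the H1 family record (27.7 FPKM, others 5.34 to 8.02). AGN193109 1D stood above the other AGN193109 libraries for the record described as histone 1 (51.2 FPKM, others 19.6 to 33.5).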

How the results depend on the processing

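Among the settings run, 0 of 31 members passed for TTNPB against vehicle, for AGN193109 against vehicle and for the interaction. For TTNPB against AGN193109 the count was 0, or 1 (H1(0)-1) with array weights, with upper-quartile scaling and 4E left out, and without TTNPB 2D (0 to 1 over the leave-outs). In clutch D alone the H2A.Zl1 difference between TTNPB and AGN193109 was -0.054, and the cause was not tested. Between clutch E and clutch D the count was 12 and ran from 9 to 16 over the leave-outs, with 16 when 4E is left out. It was 6 with upper-quartile scaling and 11 (4 higher, 7 lower) when 4E was also left out. Fits within 1 exposure use fewer samples and gave 6 with TTNPB, 0 with AGN193109 (1 without 4E) and 10 with vehicle. In the AGN193109 libraries without 4E the H1A EST difference between the clutches was 0.032, and the cause was not tested. The fits within 1 exposure and the joint rescaling without 4E were chosen after seeing the data. The H1A EST lost its call in 10 of 24 leave-outs (adjusted p up to 0.0721, limma: AGN193109 2D, TTNPB 1D, 1E, 2D, 3D and 4E, vehicle 1E, 2D, 3D and 3E), NAP1 in 11 (up to 0.0631: AGN193109 1D, 2D, 3D and 4D, TTNPB 1D, 1E, 3E and 4D, vehicle 1D, 3E and 4E) and CHRAC17 in 18 (up to 0.0899), all but AGN193109 2E and 3D and TTNPB 1D, 1E, 3D and 4E.

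Over all tested records, TTNPB against vehicle gave 178 calls, and 376 with array weights, 312 without 4E (with or without upper-quartile scaling), 286 from only these groups, 79 in clutch E alone, 49 in clutch D alone and 21 from clutch means. TTNPB against AGN193109 gave 234, and 365, 299, 174, 136, 82 and 52 under the same settings in the same order (346 with upper-quartile scaling and 4E left out). AGN193109 against vehicle gave 4, and 14, 13, 2, 1, 4 and 0. The clutches gave 6640, and 2255, 160 (834 without 4E) and 3164 within the TTNPB, AGN193109 and vehicle libraries. Of the calls between clutches 88.0% were lower in clutch E, 77.6% without 4E, 52.0% with quantile normalization and 53.5% with upper-quartile scaling. With no filter the interaction gave 2 calls.

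With the 10 most abundant records left out of the total, the median shares were 0.255% for core histones, 0.403% for linker histones, 0.110% for chaperones and RNA-handling proteins, 0.102% for chromatin-modifying proteins, 0.00799% for the record of unstated type and 0.000835% for the remodelling subunit, a smaller denominator by construction. Replicate numbers did not pair the samples: 1 of 24 correlations between same-numbered libraries was over 0.1 (range -0.11 to 0.11). With the replicate block 11 members passed between the clutches and 0 in each other comparison. The unknown depth limits statements on the low records, H5, H1(0)-1 and the H2A family record.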
